A study of Mus musculus with 18 samples.

Results

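BMP4 was added for 4 h to cultured mouse bone marrow macrophages whose genotype label was Smad1 fl/fl, and their RNA was compared with that of untreated cells of the same label. The comparison used 6 of the 18 libraries of the study, namely the 3 labelled Smad1 fl/fl with 50 ng/ml BMP4 and the 3 labelled Smad1 fl/fl untreated, assigned to these groups by their labels. Libraries carry the numbers 1 to 3 in each group, and each BMP4 library was set against the untreated library of the same number. Of 54532 genes in the count table, 14684 passed a filter on low counts and were tested.

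All 18 libraries came from mice 2 to 3 months old that carry Smad1 alleles flanked by loxP sites. The label of the floxed-labelled cells names no Cre and does not state that it is absent. The knockout-labelled cells (MyS1KO) are described as carrying in addition Cre recombinase driven from the lysozyme M gene (LyzM-Cre), which is active in myeloid cells. Tibial marrow spent 24 h in 15% serum, with interleukin-3 supplied by 10% WEHI-3 conditioned medium and CSF-1 at 12 ng/ml. Cells that had not attached were grown for 48 h with CSF-1 at 120 ng/ml and then kept for about 16 h in serum-free medium before the ligand. The other groups used below are the floxed-labelled cells given 10 ng/ml TGF-β1 for 4 h and the knockout-labelled cells with and without BMP4, with 3 libraries each. Nothing in the labels tells whether libraries of 1 group are from different animals or cultures, and the p-values measure the spread between these libraries only.

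Bone morphogenetic proteins bind a complex of type I receptors (Acvr1, Acvrl1, Bmpr1a) and type II receptors (Bmpr2, Acvr2a, Acvr2b), which phosphorylates Smad1, Smad5 and Smad9. These join Smad4, enter the nucleus and switch on a small set of direct targets, best known among them the Id genes, which encode inhibitors of basic helix-loop-helix transcription factors, and Smad6 and Smad7, which inhibit the pathway in turn. TGF-β1 uses related receptors and acts mainly through Smad2 and Smad3, and in many cells it also reaches Smad1 and Smad5.

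Total counts of the 6 libraries ran from 17947329 to 23086927, so that 3 counts corresponded to 0.13 to 0.167 CPM (a gene's reads divided by the library's scaled total). All 19 macrophage markers were measured in these libraries, and their summed level per length (FPKM) was 9418 to 16124 untreated and 9730 to 15825 with BMP4. Lyz2, the lysozyme gene among them, was 62.0, 9747 and 9675 CPM in untreated libraries 1 to 3 and 74.3, 9863 and 9555 CPM with BMP4. The libraries numbered 1 therefore stood apart from the others in Lyz2 in both groups, as did the floxed-labelled TGF-β1 library numbered 1 with 37.6 CPM. In the knockout-labelled cells, described as carrying Cre at that gene, Lyz2 was 15074 to 17770 CPM untreated and with BMP4, higher than in any floxed-labelled library. Whether the labels match the genotypes was not tested. Smad1 (chromosome 8, 79338395 to 79399518, mm10) was 29.99, 30.7 and 31.0 CPM untreated and 31.0, 29.6 and 27.6 CPM with BMP4 in floxed-labelled cells. It was 24.3 to 26.8 CPM in the knockout-labelled libraries, below each of these 6 floxed-labelled libraries. Whole-gene counts leave Smad1 present under both labels, and the labels do not say which exon the loxP sites flank.

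Few genes were called with BMP4, and most of those differed by a small amount. A gene was called when edgeR's quasi-likelihood test with the library number as a block gave a p, adjusted over all genes by the Benjamini-Hochberg method, under 0.05 (edgeR adjusted p below). This called 53 genes, 0.361% of those tested, of which 16 (0.109%) were higher and 37 (0.252%) lower with BMP4. At edgeR's unadjusted p, 1805 genes (12.3%) were under 0.05, so a gene not called was not shown to be unchanged. The count of calls depended on the block. Without it edgeR called 0 genes (1103 at an unadjusted p under 0.05), and with 1 block over all groups 0 (1244). A fit of the 6 libraries alone called 158, and DESeq2 with the block called 110. All 53 had the same sign in the 3 library numbers, against 16.3% of all genes higher in all 3 and 16.8% lower. In 43 of the 53 the untreated and BMP4 libraries did not overlap, against 6.5% of all genes not overlapping on the higher side and 6.66% on the lower side. The 53 were called on these same libraries, so both counts follow in part from the calling and are no separate support for it. Only Id3, Dmpk and the predicted gene Gm10800 were at least 2-fold higher among the calls, and none was at least 2-fold lower. The falls ran from log2 −0.18 to −0.70 with a median of −0.25, a level 0.84 times the untreated one, and the median rise was 1.21-fold. Genes just inside the threshold were Sem1, Ccnl2 and Pfn1 (edgeR adjusted p = 0.0458, 0.047 and 0.0473), and those just outside were Aldh3b1, Map7d1 and Lrrc59 (0.0523, 0.0524 and 0.0524).

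**Figure D1:**
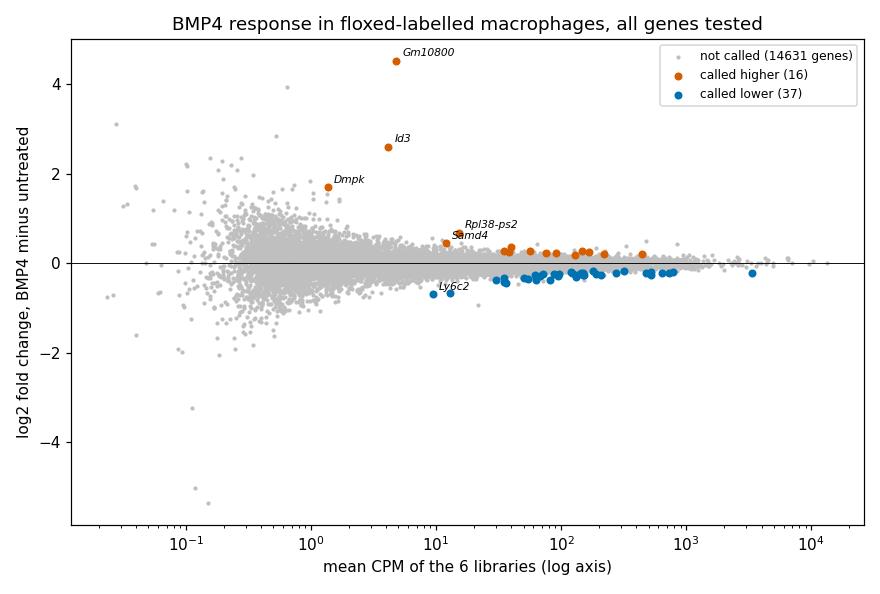
Log2 fold change with BMP4 (vertical) against the mean level in CPM of the 6 libraries (horizontal, log axis) for the 14684 genes tested, with the 16 called higher in orange and the 37 called lower in blue. Id3, Dmpk and Gm10800 stand apart above, and the other calls lie close to 0 among genes of medium to high level.

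Id3, a direct Smad1/5 target, rose the most among genes with established names. It lies on chromosome 4 (136143497 to 136145755, plus strand, mm10). Untreated libraries 1 to 3 held 0.813, 1.46 and 1.06 CPM (19, 31 and 20 reads), and BMP4 libraries held 1.88, 10.6 and 9.04 CPM (41, 192 and 203 reads). Every BMP4 library was above every untreated one, with library number 1 far below the other two. The change was log2 2.61 (SE 0.26, 6.09-fold, edgeR adjusted p = 4.66e-06), made of 1.12 in number 1, 2.78 in number 2 and 2.97 in number 3. Dmpk, a kinase gene known from muscle, went from 0.342, 0.519 and 1.06 CPM to 0.963, 2.99 and 2.32 CPM (edgeR adjusted p = 0.0269, log2 1.70, SE 0.35). It was higher within each number, although the BMP4 library numbered 1 lay below the untreated library numbered 3. Neither gene was called when the block for library number was left out (edgeR adjusted p = 0.239 for Id3 and 0.532 for Dmpk).

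The stretches before the start sites of Id3, Dmpk and Id2 are shown because the first was called with BMP4 at a large fold, the second likewise at a lower level, and the third, a target of the same pathway, was not called. Each is the 250 bases upstream of the start in RefSeq (GRCm38.p6), read 5′ to 3′ on the gene's strand, at chr4:136143572-136143821 (plus), chr7:19083608-19083857 (plus) and chr12:25096093-25096342 (minus). The gene models of the deposited table begin further upstream than RefSeq's for Id3 and Id2, whose windows lie within those models, and the Dmpk window overlaps its model at the end. Capitals mark GGCGCC, a GC-rich element bound by Smad1 and Smad5, and GTCTG or its reverse complement CAGAC, the core of the Smad binding element.
Id3: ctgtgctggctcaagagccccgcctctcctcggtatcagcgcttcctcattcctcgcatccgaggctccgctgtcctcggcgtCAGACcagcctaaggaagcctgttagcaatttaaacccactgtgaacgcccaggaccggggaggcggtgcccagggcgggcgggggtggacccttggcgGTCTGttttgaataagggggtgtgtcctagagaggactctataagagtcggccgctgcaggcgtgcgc
Dmpk: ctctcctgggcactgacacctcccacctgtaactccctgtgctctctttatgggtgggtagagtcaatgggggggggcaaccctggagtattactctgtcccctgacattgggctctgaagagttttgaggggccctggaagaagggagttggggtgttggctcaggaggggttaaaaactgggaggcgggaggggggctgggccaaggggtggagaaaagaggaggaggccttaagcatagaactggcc
Id2: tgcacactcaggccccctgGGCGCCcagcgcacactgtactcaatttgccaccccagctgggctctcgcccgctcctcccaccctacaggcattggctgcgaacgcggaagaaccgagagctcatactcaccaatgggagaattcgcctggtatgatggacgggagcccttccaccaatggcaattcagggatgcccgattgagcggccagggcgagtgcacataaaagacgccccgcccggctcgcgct
The Id3 window held GTCTG or CAGAC at 2 places and no GGCGCC, the Id2 window held 1 GGCGCC at 225 bases before the start, and the Dmpk window held neither motif. Of 14681 gene symbols tested, 10157 had such a window, and 18.5% of these held GGCGCC and 45.7% GTCTG on either strand. Among the called genes 11 of 16 rises and 32 of 37 falls had a window. GGCGCC was in 1 of the 11 and 6 of the 32, and GTCTG in 2 of the 11 and 20 of the 32. Motifs outside these windows were not searched.

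Id2, which encodes another inhibitor of helix-loop-helix factors, was not called. Its level was 22.2, 19.7 and 20.9 CPM untreated and 21.4, 22.9 and 21.9 CPM with BMP4. The groups overlapped, and the difference was log2 0.07 with a 95% interval of −0.08 to 0.23 (edgeR adjusted p = 0.755). Id1 was near the limit of detection with 2, 4 and 4 reads untreated and 7, 7 and 3 reads with BMP4, and Id4 had at most 1 read in any of the 6 libraries. Smad6, the inhibitory Smad most specific for BMP signals, was 0.342, 1.18 and 1.28 CPM untreated and 0.505, 2.11 and 1.65 CPM with BMP4. It was higher within each number, but the groups overlapped and the change did not pass the test (log2 0.61, 95% interval −0.04 to 1.26, edgeR adjusted p = 0.442). Smad7, the other inhibitory Smad, differed by log2 −0.04 (95% interval −0.32 to 0.23, edgeR adjusted p = 0.932). Of 17 BMP and Smad1/5 target genes tested, Id3 and Dmpk rose and none fell, and the median of the 17 was log2 0.10 against 0.0004 over all genes. The list was chosen with earlier results of these data known, so its counts are not independent of these data. The hepcidin gene Hamp, a BMP target in liver, had 1 read over the 3 untreated and 2 over the 3 BMP4 libraries and was not tested.

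**Figure D2:**
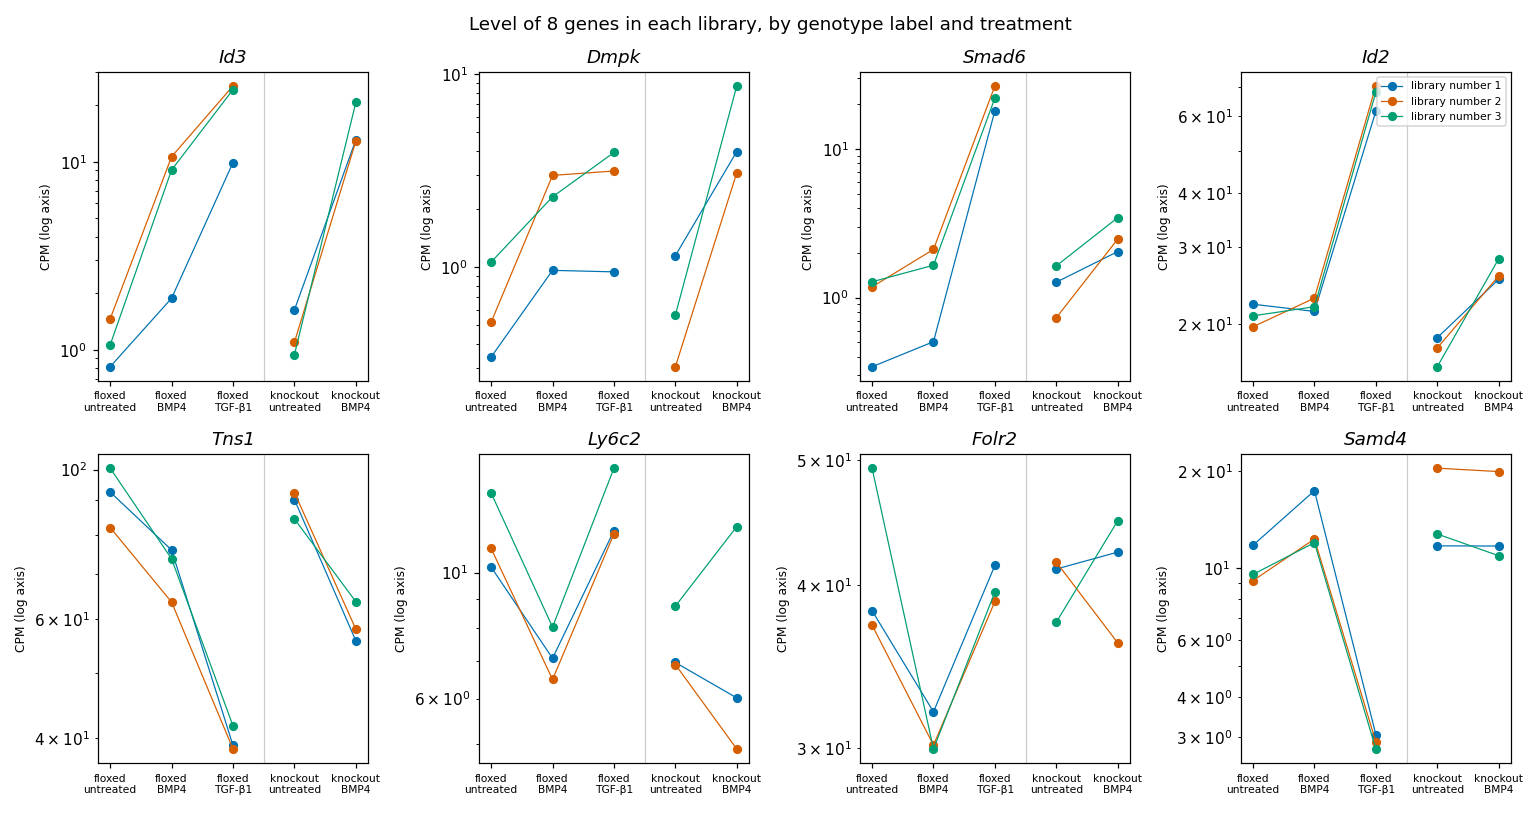
Level in CPM (log axes) of 8 genes in each library of 5 groups, with lines joining libraries of the same number within a genotype label. In floxed-labelled cells Id3 is higher with BMP4 in each number and least so in number 1, Id2 overlaps between untreated and BMP4, and Ly6c2, Folr2 and Tns1 lie lower with BMP4.

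Receptors, Smads and inhibitors of the pathway were measured, and edgeR called none of them. Among 14 receptors and co-receptors tested, Bmpr2, the main BMP type II receptor, was 115, 116 and 113 CPM untreated and 107, 115 and 121 CPM with BMP4 (log2 −0.01, edgeR adjusted p = 0.977). Per length, the type I receptor Acvrl1 had a mean level of 15.6 FPKM and Acvr1 3.66 FPKM in untreated cells, against 0.112 FPKM for Bmpr1a, the type I receptor through which BMP4 acts in many cells. Bmpr1b, the other classical BMP4 type I receptor, had 0 reads in all 6 libraries, where a count of 0 allows up to 0.13 to 0.167 CPM per library. Smad5 differed by log2 0.02 (edgeR adjusted p = 0.933) and Smad4 by 0.06 (edgeR adjusted p = 0.68), and Smad9 had 0 reads untreated and 3 with BMP4. Of the 14 receptors, 7 Smads, 16 antagonists and negative regulators and 5 ligands tested, edgeR called 0. DESeq2 gave an adjusted p to 8, 6, 13 and 1 of them and called 0 of these. At edgeR's unadjusted p, 1 receptor (Tgfbr2, log2 −0.17) and 1 antagonist (Tob2, log2 −0.12) were under 0.05. Bambi, a decoy receptor that BMP signals induce in other cells, differed by log2 −0.05 (edgeR adjusted p = 0.913). Bmp4 itself had 1 read in the 6 libraries.

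Beside Id3 and Dmpk the called rises were small. Samd4, which encodes an RNA-binding protein that represses translation, went from 11.8, 9.15 and 9.56 CPM to 17.3, 12.3 and 12.0 CPM (edgeR adjusted p = 0.0417, log2 0.44, SE 0.10). All BMP4 libraries were above all untreated ones. Atp6v0d2, a subunit of the vacuolar proton pump known from osteoclasts and macrophages, went from 38.3, 35.0 and 30.4 CPM to 51.3, 39.6 and 42.8 CPM (log2 0.36, edgeR adjusted p = 0.0207) and was the only one of 11 osteoclast genes called. Fabp5, a fatty acid binding protein, was 200.1, 90.7 and 112 CPM untreated and 237, 115 and 133 CPM with BMP4 (log2 0.28, edgeR adjusted p = 0.0147). Its groups overlapped because both libraries numbered 1 lay above the rest, and it rose within each number. Further rises were the cyclins Ccnl1 (log2 0.25) and Ccnl2 (0.20), partners of kinases that act on splicing, the splicing kinase gene Clk1 (0.22) and the ribosome assembly gene Krr1 (0.24). Ogt, which attaches N-acetylglucosamine to proteins (log2 0.21), the single-stranded DNA binding gene Nabp1 (0.27), the chromatin gene Arid5b (0.22) and Sowahc (0.25) complete the called rises with established names. In these 8 genes the untreated and BMP4 libraries did not overlap.

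Of the other called rises, Gm10800, Gm7072 and Rpl38-ps2 carry names of predicted genes or pseudogenes, and reads shared with near copies make their levels uncertain. Gm10800 had 1, 15 and 3 reads untreated and 7, 99 and 499 reads with BMP4 (log2 4.52, edgeR adjusted p = 0.012). Most of that difference came from BMP4 libraries 2 and 3, and the groups overlapped.

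Among the falls, Ly6c2, a surface antigen of inflammatory monocytes, had the largest change. It lies on chromosome 15 (75108158 to 75111970, minus strand). Untreated libraries held 10.2, 11.03 and 13.8 CPM and BMP4 libraries 7.06, 6.48 and 8.02 CPM (edgeR adjusted p = 0.0147, log2 −0.70, SE 0.13). All BMP4 libraries were below all untreated ones, and its near copy Ly6c1 had at most 4 reads in any of the 6. Folr2, a folate receptor of tissue macrophages, fell from 38.3, 37.3 and 49.3 CPM to 32.0, 30.1 and 29.9 CPM (log2 −0.43, edgeR adjusted p = 0.0149). With it fell Il4ra, the receptor chain for interleukin-4 (log2 −0.22, edgeR adjusted p = 0.0147). These were the 2 calls among 19 alternative activation genes, whose median was log2 −0.04. Bcl3, a nuclear partner of NF-κB, fell from 35.2, 46.4 and 38.4 CPM to 26.7, 30.1 and 32.2 CPM without overlap (log2 −0.42, edgeR adjusted p = 0.0135).

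Tns1, which links integrins to actin, was 92.6, 82.1 and 100.4 CPM untreated and 76.0, 63.7 and 73.8 CPM with BMP4 (edgeR adjusted p = 0.00573, log2 −0.36, SE 0.06). It fell without overlap, as did the actin monomer binder Pfn1 (log2 −0.21, edgeR adjusted p = 0.0473) and Vav3 (log2 −0.28, edgeR adjusted p = 0.0135). Vasp, which promotes growth of actin filaments, fell within each number but overlapped between groups (log2 −0.23, edgeR adjusted p = 0.0147). Tns1 and Vasp were the calls among 28 adhesion and actin genes tested, of which 20 were lower and 8 higher with a median of log2 −0.06. Over all genes tested, 7323 were lower and 7360 higher. At an unadjusted p under 0.05, 11 of the 28 were lower, against 7.1% of all genes, and 3 higher, against 5.19%. Other falls were Lrp1, a large scavenger receptor and the only call among 27 phagocytosis genes (log2 −0.22), the complement receptor gene C5ar1 (−0.25), the sialic acid receptor Siglece (−0.37), the sialomucin Spn (−0.23), the immune checkpoint protein Vsir (−0.19) and the semaphorin Sema4a (−0.36). The Ras family regulator Rgl1 (log2 −0.37), the ubiquitin-conjugating enzyme Ube2s (−0.33), Soga1 (−0.34), Smdt1 of the mitochondrial calcium channel (−0.33), Ehd1 of endosome recycling (−0.30) and the dynein light chain Dynll2 (−0.29) complete the 12 largest falls.

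**Figure D3:**
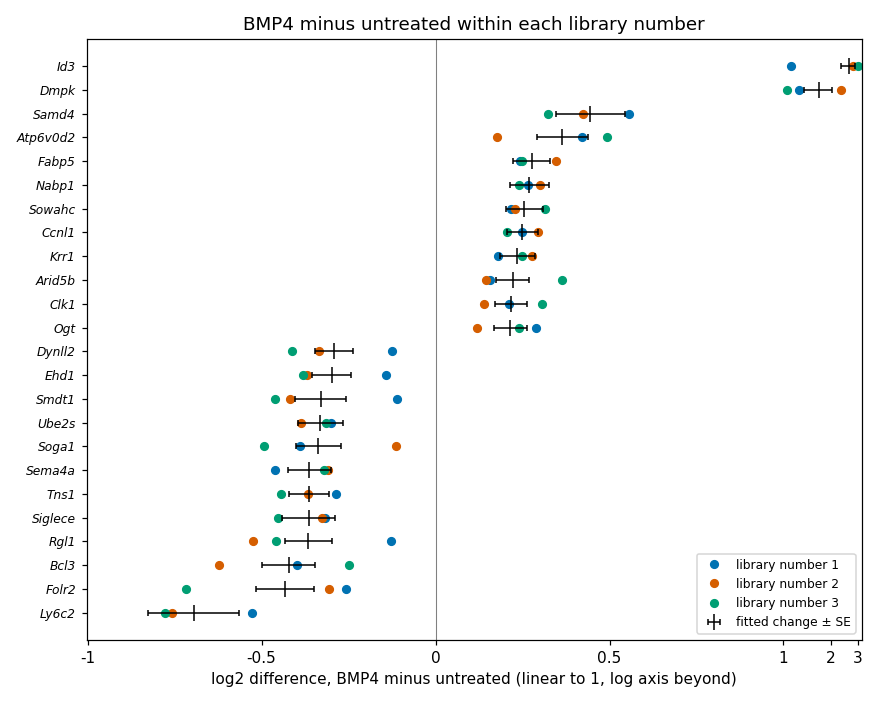
Log2 difference of BMP4 minus untreated within each library number (colored points) and the fitted change with its SE (black) for the 12 largest rises and the 12 largest falls with established names. The horizontal axis is linear up to 1 and logarithmic beyond. In each gene the 3 numbers lie on the same side of 0, and only Id3 and Dmpk exceed 1.

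Of 32 genes of G2 and mitosis and 32 of G1/S and DNA replication tested, edgeR called 0, and DESeq2 called 0 of the 26 and 16 to which it gave an adjusted p. Of 16 Cdk inhibitors, D cyclins and related genes, edgeR called 0, and DESeq2 called 1 of 10, the G1 kinase gene Cdk6 (lower, log2 −0.24 by edgeR). Of the 32 genes of G2 and mitosis, 31 were lower with BMP4 (median log2 −0.17), against 7323 of all 14684 genes tested. In all 3 library numbers 16 were lower, against 16.8% of all genes, and 9 were lower at an unadjusted p under 0.05, against 7.1% of all genes. The lowest p belonged to Ccnb2, a mitotic cyclin with 34.4, 28.5 and 30.6 CPM untreated and 28.9, 21.8 and 26.3 CPM with BMP4 (log2 −0.28, edgeR adjusted p = 0.0824). Of the 32 genes of G1/S and DNA replication, 28 were lower (median log2 −0.16), 6 of them in all 3 numbers and 6 at an unadjusted p under 0.05, read against the same shares of all genes. The replication clamp Pcna differed by log2 0.01 (95% interval −0.09 to 0.11) and the helicase subunit Mcm6 by −0.01 (−0.17 to 0.16). In knockout-labelled cells the medians of the same lists with BMP4 were log2 0.03 and 0.09.

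Several lists of immune and early response genes held no call by edgeR in either direction. These were 36 interferon-stimulated genes (median log2 0.03, range −0.23 to 0.21), 25 pro-inflammatory genes (median −0.03), 30 TGF-β and Smad3 targets (median −0.03), 30 immediate early genes (median −0.04) and 16 genes of antigen presentation (median −0.07). DESeq2 gave an adjusted p to 32, 14, 24, 14 and 13 of them and called 0 of these. The complement and chemokine lists each held 1 call, C5ar1. At an unadjusted p under 0.05, 1 interferon-stimulated gene (Trim30a, log2 0.13) was higher and none lower, against 5.19% of all genes higher and 7.1% lower. Of the pro-inflammatory genes 1 was higher and 6 lower, of the TGF-β targets 3 (Spsb1, Bhlhe40 and Slc40a1) and 2 (Cx3cr1 and Tgm2), of the immediate early genes 2 (Egr2 and Atf3) and 3 (Jund, Fosl2 and Nr4a2), and of the antigen presentation genes 0 and 1 (Psmb8).

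**Figure D4:**
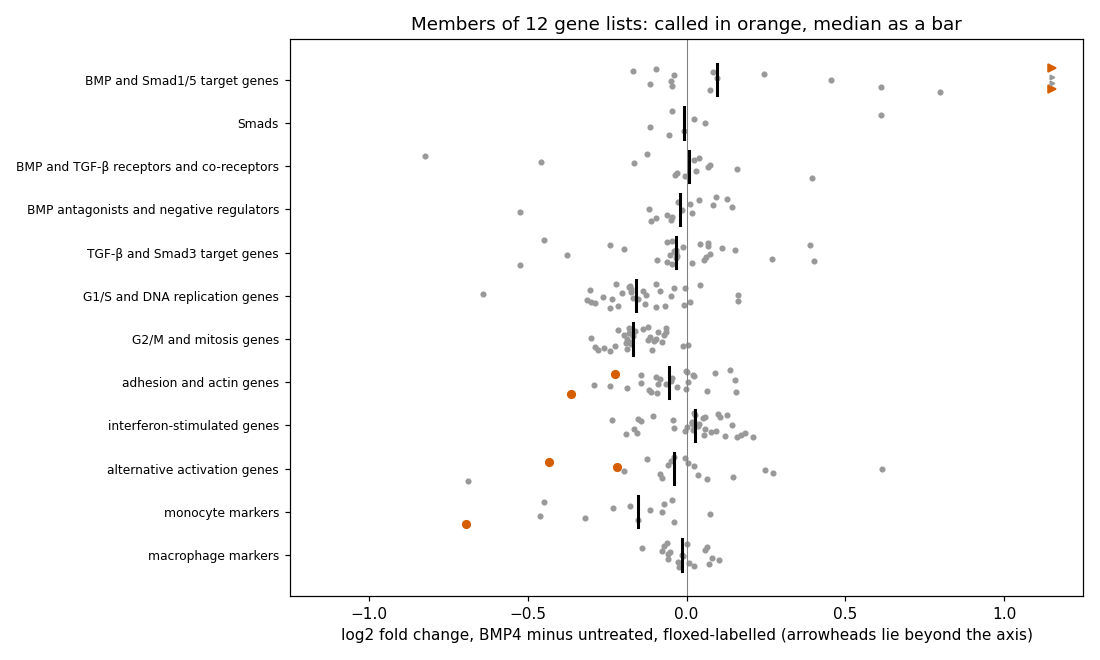
Log2 fold change with BMP4 in floxed-labelled cells for each tested member of 12 gene lists (points, called genes larger and in orange, arrowheads beyond the axis) and each list's median (bars). The medians of the cell cycle lists and of monocyte markers lie below 0, and the other medians lie between −0.06 and 0.10.

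Markers of other cells that such cultures could hold were also compared. Of 13 monocyte markers tested, 12 were lower with BMP4 (median log2 −0.15), against 7323 of all 14684 genes tested. In all 3 library numbers 4 were lower, against 16.8% of all genes. Ly6c2 was the only call, and the summed level of the monocyte markers was 249 to 284 FPKM untreated and 232 to 271 FPKM with BMP4. Of 14 neutrophil markers tested 10 were lower and 4 higher, and of 14 dendritic cell markers 9 were lower and 5 higher. Neutrophil markers summed to 239 to 301 FPKM and 247 to 311 FPKM, and dendritic cell markers to 323 to 430 FPKM and 291 to 353 FPKM. Stromal markers were scarce, and their sums did not overlap, with 3.16 to 3.51 FPKM untreated and 4.13 to 4.68 FPKM with BMP4. Of 6 tested, 5 were higher and 1 lower, none was called and none was higher in all 3 library numbers. Among these 6, the collagen genes Col1a1 and Col1a2 had means of 0.673 and 0.634 CPM untreated and 1.95 and 2.03 CPM with BMP4. Some markers of mast cells and basophils (Cma1, Fcer1a, Mcpt4 and Tpsb2), natural killer cells (Ncr1) and erythroid cells or platelets (Car1 and Gp1bb) were at 0 in these libraries. Other members of their lists had reads. The mast cell and basophil list summed to 2.70 to 4.91 FPKM untreated and 3.53 to 5.05 FPKM with BMP4. The lymphoid list summed to 24.1 to 29.8 FPKM and 25.7 to 30.9 FPKM, and the erythroid and platelet list to 304 to 346 FPKM and 300 to 325 FPKM. In such bulk libraries fewer cells of a type and less RNA per cell cannot be told apart, and the part of these cells in the calls was not tested.

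Several other measures moved with the treatment. Genes of biotype TEC, an annotation class for transcripts that lack experimental evidence, held 0.0953%, 0.101% and 0.0942% untreated and 0.105%, 0.103% and 0.106% of counts with BMP4, and mitochondrial genes held 1.12% to 1.19% and 1.20% to 1.26%. With the TEC share as a covariate 5 genes were called, all among the 53: Id3 and Rpl38-ps2 higher and Tns1, Pbxip1 and Gm12715 lower. The log2 changes of the 53 kept their sign with it and had a median ratio of 0.944 to those without it. The GC content of transcripts had a median of 44.1% in the called rises, 54.97% in the called falls and 49.1% over all genes tested. Across 8592 genes with at least 10 CPM, which are not independent replicates, the log2 change and GC content had a correlation of r = −0.33, and −0.23 in knockout-labelled cells. With a correction for GC content 37 genes were called, 27 of them among the 53. Untreated levels of the falls were high (median 131 CPM, against 43.3 CPM for the rises and 16.7 CPM over all genes).

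The BMP4 response in knockout-labelled cells, which shares no library with the floxed-labelled comparison, went the same way for most of the called genes. There edgeR called 472 genes (3.21%), 167 higher (1.14%) and 305 lower (2.08%). Of the 53 genes, 48 had the same sign, 33 were called in the same direction (10 of the 16 rises and 23 of the 37 falls) and none was called in the opposite one. The share of all genes with the same sign under both labels was not taken, so the 48 have no background to be read against. The shared 33 were 62.3% of the floxed-labelled calls and 6.99% of the knockout-labelled calls. Across 8598 genes with at least 10 CPM the log2 changes under the labels had a correlation of r = 0.47, as a description over genes, and their SD was 0.106 in floxed-labelled and 0.123 in knockout-labelled cells.

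Id3 was 1.63, 1.10 and 0.942 CPM in untreated and 13.1, 12.9 and 20.7 CPM in BMP4-treated knockout-labelled libraries. The rise there was log2 3.65, and the difference of −1.04 between the labels did not pass the test (edgeR adjusted p = 0.528). Id2 was 18.6, 17.6 and 15.9 CPM untreated and 25.3, 25.8 and 28.2 CPM with BMP4 in knockout-labelled cells, where it rose (log2 0.61, edgeR adjusted p = 9.47e-05). The response of Id2 differed between the labels by log2 −0.53, which also did not pass (edgeR adjusted p = 0.0749). Smad6 likewise was called in knockout-labelled cells (log2 1.12, edgeR adjusted p = 0.0233) without a called difference between the labels (edgeR adjusted p = 0.793). Ly6c2, Folr2 and Samd4 had log2 changes of −0.02, 0.03 and −0.08 in knockout-labelled cells, none of them called, and none differed between the labels by the test (edgeR adjusted p = 0.253, 0.191 and 0.193). Over all genes 7 responses (0.0477%) were called as different between the labels, all more positive in floxed-labelled cells, and none of them was among the 53.

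**Figure D5:**
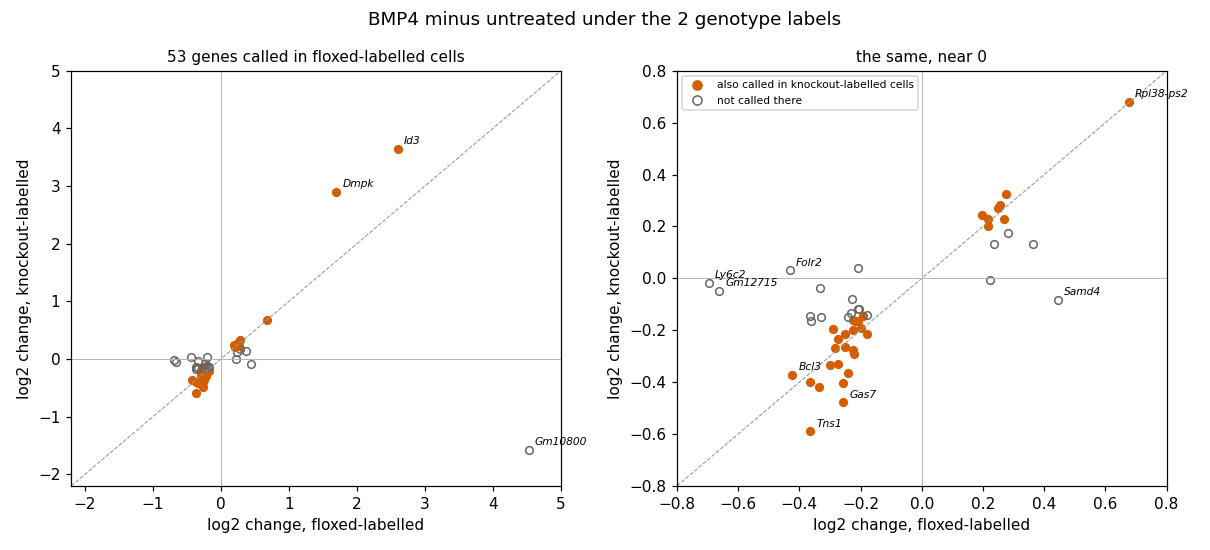
Log2 change with BMP4 in knockout-labelled cells (vertical) against floxed-labelled cells (horizontal) for the 53 genes called in floxed-labelled cells, in full on the left and near 0 on the right, with genes called under both labels filled. The dashed line marks equal change. In the quadrants of the same sign lie 48 genes, and Gm10800, Samd4, Folr2, Arid5b and Apobr lie outside them.

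TGF-β1 gave far more calls than BMP4 in cells of the same label. Against the same untreated libraries it gave 5804 calls (39.5%), 20.1% of genes higher and 19.5% lower, and the SD of log2 changes over genes with at least 10 CPM was 0.524. Because the comparisons share their untreated libraries, the values are only set side by side. Of the 16 rises with BMP4, TGF-β1 gave 6 called higher and 5 called lower, and of the 37 falls it gave 19 called lower and 7 called higher. Tested directly against each other, the BMP4 and TGF-β1 libraries differed in 6061 genes (41.3%). Among the 53, 43 differed, 22 with BMP4 higher and 21 with BMP4 lower.

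Id3 reached 9.90, 25.3 and 24.2 CPM with TGF-β1, above the BMP4 library of the same number each time (log2 −1.52 for BMP4 minus TGF-β1, edgeR adjusted p = 1.17e-08). The library numbered 1 was again the lowest. Smad6 was 18.03, 26.5 and 22.0 CPM with TGF-β1, more than any BMP4 library held (log2 −4.00). For Dmpk the ligands were not told apart, with 0.946, 3.15 and 3.93 CPM under TGF-β1 (log2 −0.35 for BMP4 minus TGF-β1, edgeR adjusted p = 0.342). Samd4 rose with BMP4 and was 3.06, 2.90 and 2.76 CPM with TGF-β1, below every untreated and BMP4 library (log2 2.23). Ly6c2 was 11.9, 11.7 and 15.3 CPM with TGF-β1, above each BMP4 library (log2 −0.84, edgeR adjusted p = 4.72e-06), whereas Tns1 was 39.1, 38.6 and 41.8 CPM with TGF-β1, below every BMP4 library (log2 0.83).

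The set of called genes depended on single libraries. When the floxed-labelled libraries of number 1 were left out, those with little Lyz2, 18 genes were called, and 11 of the 53 remained among them. Leaving out untreated library 1 gave 57 calls, untreated library 2 gave 59, untreated library 3 gave 5, BMP4 library 1 gave 29, BMP4 library 2 gave 13 and BMP4 library 3 gave 9. Id3 was called in 18 of 20 alternative analyses, Tns1 in 14, Folr2 in 13, Bcl3 in 12 and Dmpk in 8 of 19 that gave it a value. All 53 kept their sign in every alternative that gave a value. They had the same sign in each library number from the start, so leaving out a number could hardly change it.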

How the data were processed

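Polyadenylated RNA was sequenced as paired reads of 150 bases, per the labels' protocols. Reads were mapped to mm10 (GRCm38.p6), and the submitters' processing notes name TopHat2 2.0.9, HTSeq 0.6.1 and Cufflinks 2.1.1. Per the file headers, the deposited counts are reads assigned to each gene, and they entered the fit as they stand. The deposited FPKM values are the authors' counts scaled by gene length and depth and served only for levels per length and marker sums. Log2 fold changes and p-values of the authors' deposited table (other values, stored as text) are given in the closing section only. A further 78 columns of per-sample values were not used. Whether counting used strand is not given in the sources used here, so genes with an antisense partner are uncertain.

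The tests ran in edgeR 4.0.16 under R 4.3.3 (TMM, factors 0.978 to 1.02, filterByExpr over 6 groups, quasi-likelihood F test, two-sided) in 1 fit of all 18 libraries, with 1 mean per group and the library number as a block within each genotype label (degrees of freedom: 8 residual, 17.7 prior; coefficient of biological variation 4.91%). The p-values were adjusted over all 14684 genes by the Benjamini-Hochberg method, and a gene was called under 0.05. The block was checked: deviations from group means correlated between untreated and BMP4 libraries of the same number (r = 0.62, 0.49 and 0.47 for numbers 1 to 3) and not between different numbers (−0.48 to 0.01), and other groups of a label gave 0.33 to 0.73, so the numbers were taken to pair the libraries. Such deviations cancel out within a group. Positive values within numbers therefore push those between different numbers down, and the contrast is partly built in. No library repeated another of its group, as the chi-square over genes was 5.13 to 28.8 times its degrees of freedom. Differences within a library number are of log2 CPM with a prior count of 2. The floor of 3 counts and the intervals cover counting error or the spread between libraries only. The method was tested on simulated data.

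Genes named are the 12 largest rises and 12 largest falls among calls with at least 1 CPM in the higher group, the same sign in the 3 numbers and no predicted-gene name, up to 4 called members per list and direction or else the 2 most abundant, and 14 further genes (Lyz2, Smads, Id genes and BMP receptors). Other genes (among them Gm10800, Gm7072, Rpl38-ps2, Gm12715, Pbxip1, Pfn1, Vav3, Spn, Vsir, Ccnl2, Acvrl1, Bambi, Tgfbr2, Tob2, Trim30a, Psmb8, Cdk6, Apobr, the TGF-β target and immediate early genes given at an unadjusted p, the markers at 0, Col1a1, Col1a2, the genes next to the threshold and those in the closing section) were named after their values were seen. The comparison, the lists and the rule were chosen with earlier results of these data known. Promoter windows are from RefSeq, GC content from GENCODE transcripts of the same build. Alternatives were other scalings, filters, blocks and sample sets, DESeq2 1.42.0, the TEC share as a covariate, each library left out and, added after seeing the data, a GC correction. Groups were taken from the labels.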

Additional observations from a re-analysis of the deposited data

Results flagged for a closer look

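The responses to BMP4 of 7 transcripts differed between the genotype labels by edgeR's test of the difference itself (adjusted over all genes), each more positive in floxed-labelled cells. For Malat1, a nuclear noncoding RNA, the difference was log2 0.69 (edgeR adjusted p = 0.000989), with 1348, 1592 and 1581 CPM untreated and 1749, 1702 and 1694 CPM with BMP4 in floxed-labelled libraries and 2687, 2275 and 2153 CPM untreated and 1648, 1550 and 1809 CPM with BMP4 in knockout-labelled ones. The others were A930037H05Rik (log2 1.49, edgeR adjusted p = 0.0109), Gm37084 (1.32, 0.0196), Gm37352 (1.55, 0.0216), Gm37033 (2.18, 0.0389), Gm37472 (2.34, 0.0256) and Gm47603 (3.04, 0.0139). None of the 7 was called in floxed-labelled cells alone, and all fell in knockout-labelled cells, where the untreated group had a higher mean of each than the BMP4 group and than both floxed-labelled groups. The 5 Gm transcripts are of biotype TEC, whose share of counts was 0.116% to 0.139% in untreated and 0.0959% to 0.102% in BMP4-treated knockout-labelled libraries, and its part in these differences was not tested. None of the 7 differences was called without the block, with the TEC share as a covariate, or without the floxed-labelled libraries numbered 1.

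Samd4 was higher with BMP4 in every floxed-labelled library number and not in any knockout-labelled one, by a difference of log2 0.53. Tested as an interaction, this did not pass (edgeR adjusted p = 0.193). Knockout-labelled levels were 11.7, 20.4 and 12.7 CPM untreated and 11.7, 19.9 and 10.9 CPM with BMP4.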

How the results depend on the processing

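The count of genes called for BMP4 in floxed-labelled cells was 53 (1805 at an unadjusted p under 0.05) and depended on the block for library number. Without the block it was 0 (1103 at an unadjusted p under 0.05), and with 1 block over all groups also 0 (1244), where DESeq2 with the replicate block called 110, 47 of them among the 53. The count was 135 in a fit of the 9 floxed-labelled libraries, 158 in a fit of the 6 libraries compared and 250 with no low-count filter, each holding all 53. It was 5 with the TEC share as a covariate. Single libraries left out gave 5 to 59 calls. Without the floxed-labelled libraries numbered 1, 2 or 3 the counts were 18, 37 and 3. Total count and RLE scaling, a mean of at least 1 CPM and the GC correction gave 54, 50, 61 and 37, within 1.5 times of the count.

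In knockout-labelled cells the 472 calls became 84 without the block, 86 with 1 block over all groups, 211 in a fit of the groups compared alone, 3 when the TEC share was a covariate and 91 to 484 with single libraries left out. The 7 called differences between the labels became 0 without the block (838 at an unadjusted p under 0.05), 0 with 1 block over all groups (890), 0 when the TEC share was a covariate (831) and 0 without the floxed-labelled libraries numbered 1 (1112), against 9 by DESeq2. They became 3 without those numbered 2 and 3 without those numbered 3, 11 in a fit of only the groups compared, 94 with no low-count filter and 1 to 34 with single libraries left out. The 6061 genes that differed between BMP4 and TGF-β1 libraries stayed between 4980 and 6174. The 53 genes, which had the same sign in each library number from the start, kept it in each alternative that gave them a value. Signs were not compared for the calls of the other comparisons. The causes of these shifts were not tested. Id1, Dmpk and Smad6 were at under 3 CPM in the floxed-labelled untreated and BMP4 libraries, and the part of depth in their tests was not tested.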

Other observations

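For BMP4 in floxed-labelled cells, the authors' deposited table gives an adjusted p under 0.05 to 5 genes, mt-Rnr2, mt-Rnr1, Ccnl1 and Clec7a higher and Calm3 lower, of 24135 with a p-value. The calls with the library number as a block shared Ccnl1 and Calm3 with them. In the authors' deposited table Id3 has a log2 fold change of 2.69 with an adjusted p of 1. The mitochondrial ribosomal RNA mt-Rnr2 was 306, 289 and 258 CPM untreated and 375, 345 and 400.1 CPM with BMP4, without overlap, but was not called with the block (edgeR adjusted p = 0.36), nor was mt-Rnr1 (edgeR adjusted p = 0.399). Clec7a, the receptor for fungal beta-glucan, was 209, 213 and 191 CPM untreated and 253, 229 and 258 CPM with BMP4 (log2 0.27, edgeR adjusted p = 0.0596).

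The differences between BMP4 and untreated libraries were taken within each library number. Their correlations between numbers covered only the 8598 more abundant genes, those reaching 10 CPM on average. They were r = 0.07 for 1 and 2, 0.31 for 1 and 3 and 0.29 for 2 and 3. These are correlations across genes, which are not independent replicates. Of the other lists, heat shock genes had 12 of 17 members higher and genes of ATF4 and serine synthesis 12 of 18 lower (median log2 −0.11), with no edgeR call in either. Over all 14684 genes tested, 7360 were higher and 7323 lower. At an unadjusted p under 0.05, 3 and 1 heat shock genes were higher and lower and 0 and 6 of the ATF4 list. The shares of all genes were 5.19% higher and 7.1% lower. In the ATF4 list DESeq2 called 1, the cystine transporter Slc7a11, lower.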
